A study of Rattus norvegicus with 12 samples.

Results

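Gene expression was compared between rat aortic rings kept for 2 days in fibrin gel without added cytokine (fibrin control) and rings kept in collagen gel with tumour necrosis factor alpha (collagen TNF), to see what fibrin alone did that TNF in collagen did not, and the reverse. The comparison takes 6 of the 12 arrays of the series, 3 per group, chosen by their titles and not by any measured value. The other arrays are 3 of collagen gel without cytokine (collagen control) and 3 of fibrin gel with TNF (fibrin TNF). All aortas came from male Fisher 344 rats aged 1 to 2 months, and every culture was in serum-free medium. Treated cultures received 10 ng/ml of recombinant rat TNF-alpha, and untreated cultures received none. A sample was a pool of 4 to 6 rings in culture, from which 200 ng of RNA went onto 1 Affymetrix array of the whole-transcript type. A tissue label speaks of collagen gels for the fibrin samples too, so the titles were used. Gel and cytokine both differ between the groups, so their parts in a difference cannot be told apart within this comparison. For that reason the values of each group against collagen control are given beside it, and those comparisons share the collagen control arrays.

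An aortic ring holds smooth muscle, endothelium, adventitial fibroblasts and resident macrophages, and is used as an explant model of vessel sprouting. Fibrin is the matrix of a clot, while collagen is a fibre of the uninjured vessel wall. TNF-alpha acts through its receptors on the NF-kB transcription factors, which drive chemokines, adhesion molecules and acute-phase proteins. Interferons act through JAK kinases on a complex of STAT proteins with IRF9, which binds the interferon-stimulated response element in front of antiviral genes such as the Mx, Oas and Ifit families.

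The value table gave log2 expression levels for 14324 genes, each represented by its brightest probe set. Array medians over all probe sets lay between 5.89 and 5.98, and replicate arrays correlated across genes at 0.9958 to 0.9974. Markers of the labelled tissue were present in all 12 arrays, at 9.97 to 11.02 for the smooth muscle myosin Myh11, 7.74 to 8.29 for the endothelial cadherin Cdh5 and 13.43 to 13.60 for the fibroblast proteoglycan Dcn. These levels stand beside a median over all genes of 7.02 to 7.09 per array. The replicates are titled biological, but nothing says that they came from different animals, so p-values measure only the spread between these samples. In whole rings, fewer cells of a type and less RNA per cell cannot be told apart.

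Fibrin without cytokine and collagen with TNF differed in 381 of 14324 genes, which is 2.66% of those tested (limma, adjusted p under 0.05). Of these, 210 were higher in fibrin control (1.47%) and 171 were higher in collagen TNF (1.19%). The counts of called list members that follow are to be read against these shares. Over all 14324 genes, 1900 had an unadjusted p under 0.05 in limma, in either direction. List counts at an unadjusted p are to be read against that number. The differences toward fibrin reached further: 71 genes were higher there by at least 1 on the log2 scale, against 27 lower by at least 1. The median absolute difference of a called gene was 0.66, and the median standard error over all genes was 0.09. The 3 + 3 arrays did not overlap in any called gene, and they did not overlap in 2880 genes (20.1%) of all those tested. Centring each array on its median moved the split from 210 higher and 171 lower to 271 higher and 122 lower, since fibrin arrays had slightly lower medians (a shift of -0.06). Without collagen TNF replicate 2 the count of called genes was 238 (133 higher and 105 lower), and without collagen TNF replicate 3 it was 230 (137 higher and 93 lower).

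**Figure D1:**
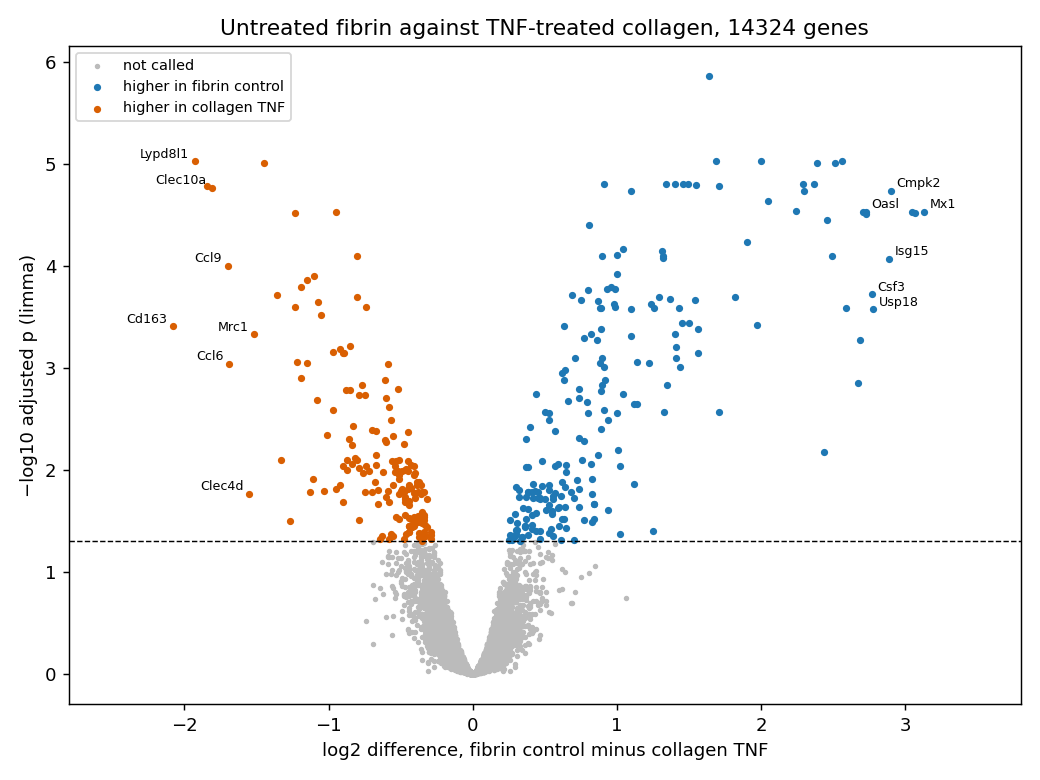
The log2 difference, fibrin control minus collagen TNF, is plotted against the -log10 of the limma adjusted p for 14324 genes, with the threshold of 0.05 as a dashed line. The 210 genes higher in fibrin control reach 3.13 on the right, while the 171 genes higher in collagen TNF reach -2.08 on the left.

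Leaving aside genes named only by a locus number, those with the largest differences toward fibrin were antiviral genes and a chemokine. Mx1, a GTPase that blocks virus replication, had levels of 11.16, 11.22 and 11.13 in the fibrin control arrays and 8.41, 7.76 and 7.94 in the collagen TNF arrays. Collagen control lay lower still, at 6.51, 6.77 and 5.58, so all 3 groups were separate. The difference for Mx1 was 3.13 ± 0.27 (SE), an 8.76-fold higher level in fibrin (adjusted p = 2.94e-05). Cxcl10, a chemokine for activated T cells, had levels of 11.38, 11.14 and 11.18 in fibrin control and 8.40, 7.73 and 8.35 in collagen TNF, a difference of 3.07 ± 0.27 (adjusted p = 3.03e-05). Rsad2 (viperin), an enzyme that makes a chain-terminating nucleotide, had levels of 12.02, 11.72 and 11.79 in fibrin control and 9.21, 8.19 and 8.97 in collagen TNF. Its difference was 3.05 ± 0.27. Cmpk2, a mitochondrial nucleotide kinase whose gene neighbours Rsad2, had levels of 10.77, 10.47 and 10.46 against 8.0, 7.31 and 7.68, a difference of 2.90 ± 0.24. In each of these genes every fibrin array was above every collagen TNF array, and the replicates of collagen TNF were spread more widely than those of fibrin. Mx1 has a close copy in Mx2 (2.69 ± 0.34), and each is uncertain as a single gene.

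**Figure D2:**
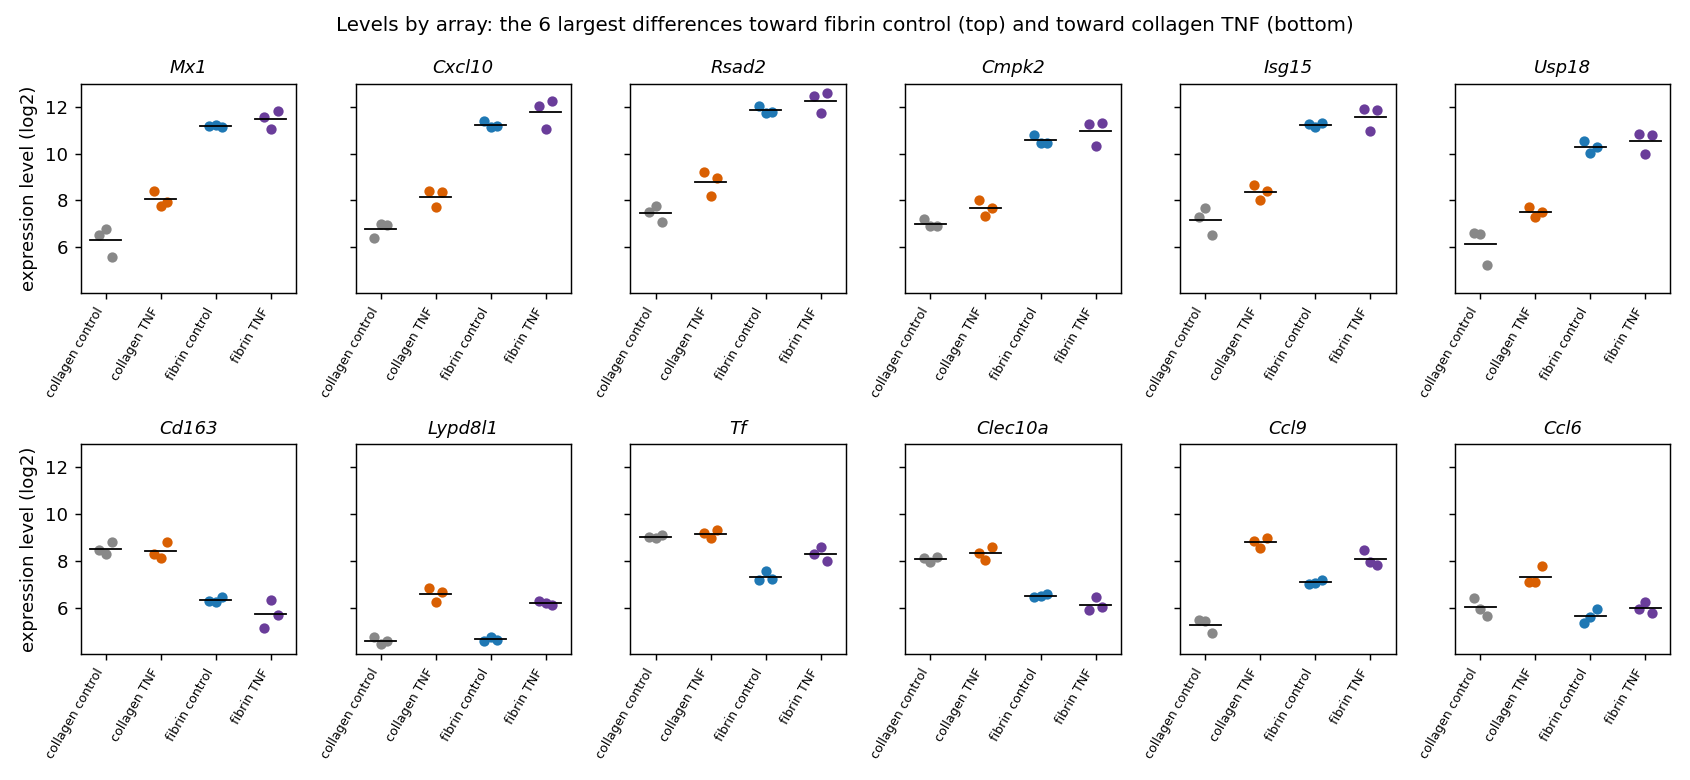
Log2 expression levels of 12 genes are shown by array in the 4 groups, with a point per array and a line at each group mean. In the upper row (Mx1, Cxcl10, Rsad2, Cmpk2, Isg15, Usp18) the 3 fibrin control arrays lie above every collagen TNF array, and in the lower row (Cd163, Lypd8l1, Tf, Clec10a, Ccl9, Ccl6) they lie below.

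The 250 bases in front of the start sites of these 4 genes are printed because, locus numbers aside, they differed most toward fibrin. The element through which interferon acts can be looked for in them. The sequences are RefSeq's, assembly GRCr8, read 5′ to 3′ on the strand of the gene and ending at the base before the start site. Mx1 lies at chr11:50294607-50294856 (minus strand), Cxcl10 at chr14:15988816-15989065 (plus strand), Rsad2 at chr6:48788121-48788370 (minus strand) and Cmpk2 at chr6:48802600-48802849 (plus strand). Capitals mark matches, on either strand, to GAAANNGAA, the core of the interferon-stimulated response element, and to GGANNTTCC, a form of the kappa B site.
Mx1: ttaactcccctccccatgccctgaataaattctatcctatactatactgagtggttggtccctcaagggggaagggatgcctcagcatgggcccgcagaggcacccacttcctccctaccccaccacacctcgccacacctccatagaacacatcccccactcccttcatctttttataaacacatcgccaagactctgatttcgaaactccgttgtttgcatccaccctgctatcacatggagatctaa
Cxcl10: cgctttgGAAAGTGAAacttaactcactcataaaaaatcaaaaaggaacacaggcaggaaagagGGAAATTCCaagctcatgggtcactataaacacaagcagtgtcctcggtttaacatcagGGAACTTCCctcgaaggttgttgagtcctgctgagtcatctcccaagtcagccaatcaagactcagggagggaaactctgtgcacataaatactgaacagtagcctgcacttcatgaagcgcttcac
Rsad2: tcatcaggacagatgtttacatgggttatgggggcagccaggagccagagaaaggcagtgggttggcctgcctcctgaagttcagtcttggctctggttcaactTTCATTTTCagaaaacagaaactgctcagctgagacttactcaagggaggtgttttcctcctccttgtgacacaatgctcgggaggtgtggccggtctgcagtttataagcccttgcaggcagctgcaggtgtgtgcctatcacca
Cmpk2: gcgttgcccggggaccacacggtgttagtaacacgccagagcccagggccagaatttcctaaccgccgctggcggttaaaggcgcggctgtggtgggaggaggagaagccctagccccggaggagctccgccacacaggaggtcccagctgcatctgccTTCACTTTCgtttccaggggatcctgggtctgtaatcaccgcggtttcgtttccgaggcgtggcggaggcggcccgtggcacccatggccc

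Cxcl10 held 1 match to the interferon element core, 243 to 235 bases before the start site. It also held 2 sites of the kappa B form, at 186 to 178 and at 127 to 119. Each of these 2 sites matched the form on both strands at the same bases. Rsad2 held 1 match to the interferon element core on its minus strand at 146 to 138 bases, and Cmpk2 held 1 at 91 to 83, also on the minus strand. None of these sites overlapped another, and Mx1 held no match to either motif in this window. Of the 27457 RefSeq promoters given, 8.0% held the interferon element core, and of those of all genes tested 7.1% (838 of 11823) did. The share was 23.9% (39 of 163) for genes higher in fibrin control and 9.4% (12 of 127) for genes higher in collagen TNF. It was 68.6% (24 of 35) for the list of interferon-stimulated genes. Outside that list, 13.6% (18 of 132) of the genes higher in fibrin control held it. The kappa B form was in 3.3% of all promoters and in 3.5% of those of all genes tested. It was in 8.0% (13 of 163) of those higher in fibrin control and in 2.4% (3 of 127) of those higher in collagen TNF. These shares are descriptions of letters in a window and were not tested.

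Of 61 listed interferon-stimulated genes, 49 were measured, and 43 of them were higher in fibrin control and 0 lower, beside 1.47% and 1.19% of all genes. At an unadjusted p under 0.05, 46 were higher and 0 lower. The median difference of the 49 was 1.40, against a median of 0.00 over all genes. Relative to collagen control the list had medians of 1.78, 1.77 and 1.87 in the 3 fibrin control arrays and of 0.60, 0.32 and 0.40 in the 3 collagen TNF arrays, so the groups did not overlap. The list was higher than in collagen control with TNF as well as with fibrin: 46 of 49 members were called higher in fibrin control (5.35% of all genes were) and 21 of 49 in collagen TNF (3.27% of all genes were). With the near-identical Mx, Oas, Ifit, Ifi27, Ifi44, Gbp, Slfn, Irgm and Igtp families left out, 23 of the remaining 25 genes were higher in fibrin control. That alternative was chosen after the data were seen.

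Isg15, a ubiquitin-like modifier, had levels of 11.27, 11.12 and 11.29 in fibrin control and of 8.65, 8.0 and 8.38 in collagen TNF, and Usp18, the protease that removes it, differed by 2.78 ± 0.32. Herc6, a ubiquitin ligase of the same system, had levels of 9.70, 9.58 and 9.56 against 7.24, 6.84 and 7.07, a difference of 2.56 ± 0.18 (adjusted p = 9.45e-06). The arrays of the groups were apart in all of these genes. Bst2 (tetherin), which holds budding virus at the cell surface, differed by 1.46 ± 0.11, from 8.69, 8.31 and 8.59 in collagen TNF to 10.02, 9.91 and 10.06 in fibrin control. Oasl and Oas1a, of the family that senses double-stranded RNA, each differed by 2.73. Slfn4, of a family that restrains cell growth, differed by 1.69 ± 0.11.

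Not every member followed. Among the 6 that were not called, Ifitm1, a membrane protein that restricts virus entry, had overlapping levels of 7.15, 7.15 and 7.52 in fibrin control and 7.54, 7.28 and 7.40 in collagen TNF, with a difference of -0.13 and a 95% interval of -0.38 to 0.12. Epsti1 had a difference of -0.02 (interval -0.34 to 0.30). Trex1, a nuclease that clears cytosolic DNA, had a difference of 0.48 (interval 0.16 to 0.80, adjusted p = 0.141), with every fibrin array above every collagen TNF array.

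Genes upstream of these held calls in both directions. Of 34 listed signalling genes 26 were measured, of which 4 were higher in fibrin control and 2 lower, with a median of 0.06. Irf7, the transcription factor that amplifies interferon genes, had levels of 11.21, 11.32 and 11.19 in fibrin control against 8.76, 8.22 and 8.60 in collagen TNF, a 6.56-fold difference (2.71 ± 0.24, adjusted p = 2.94e-05). Irf9 and Stat2, partners in the complex that binds the interferon element, differed by 1.10 ± 0.09 and 0.96 ± 0.10. Fibrin control was above collagen TNF in every array of these 3 genes. The fourth gene higher in fibrin control was Tlr3, a sensor of double-stranded RNA, by 0.47 (adjusted p = 0.047, and 0.0656 to 0.175 without any 1 of the 6 arrays compared, collagen control replicate 2 or fibrin TNF replicate 1). Its call was also lost with quantile normalization (0.0723) and with a replicate block (0.0502). The 2 genes lower in fibrin control were Ifngr1, a chain of the interferon gamma receptor (-0.34), and Irf8, a myeloid transcription factor (-0.44). Ifngr1 lost its call without collagen TNF replicate 2 or 3 or fibrin control replicate 2 or 3 (adjusted p 0.0611 to 0.0839). Irf8 lost it without any single array of collagen control or fibrin control, without replicate 1 or 2 of collagen TNF and without replicate 3 of fibrin TNF (adjusted p 0.0525 to 0.14). Quantile normalization (0.0643), median centring (0.0786) and a fit of the 2 groups alone (0.106) also removed the Irf8 call. Interferon beta itself, Ifnb1, had levels of 3.73, 3.46 and 3.43 in fibrin control and 3.34, 3.63 and 3.59 in collagen TNF. These overlapped, and the difference was 0.03 with an interval of -0.36 to 0.41. Such levels are far below the median over all genes of 7.02 to 7.09 per array. Whether Ifnb1 was detected at all was not tested, so its small difference says little. Ifnar1, a chain of the interferon beta receptor, had a difference of 0.02 (interval -0.14 to 0.19).

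Of the genes for antigen presentation, those higher in fibrin included class I molecules and the peptide pump. Of 28 listed genes 24 were measured, of which 6 were higher in fibrin control and 1 lower, with a median of 0.14. Leaving out replicate 2 or 3 of collagen TNF or of fibrin control brought the 6 to 3, and without collagen control replicate 1 the 1 became 2. RT1-S3, a class I molecule of the rat, had levels of 11.31, 11.31 and 11.24 in fibrin control and 9.92, 9.59 and 9.71 in collagen TNF, a difference of 1.55 ± 0.12. Tap1, a chain of the pump that loads peptides, had levels of 10.46, 10.49 and 10.42 against 9.70, 9.62 and 9.60 (0.81 ± 0.07, adjusted p = 4.02e-05). The groups were apart in both genes. The gene lower in fibrin control was RT1-DMa, which edits peptides on class II molecules (-0.45, adjusted p = 0.0208); its call was lost without collagen TNF replicate 2 or 3 or fibrin control replicate 1 or 2 (adjusted p 0.0572 to 0.0957). RT1 genes are near-identical copies and are uncertain as single genes.

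Chemokines divided between the groups. All but 1 of 35 listed genes were measured, and of these 34, 10 were higher in fibrin control and 6 were higher in collagen TNF, with a median difference of -0.02. Against collagen control the list was higher in both: 18 of 34 were called higher and 2 lower in fibrin control (5.19% of all genes were called lower there), and 16 of 34 were higher and 1 lower in collagen TNF (3.1% of all genes were called lower there). The median over the list was 0.78 in fibrin control and 0.63 in collagen TNF. The 10 toward fibrin were Cxcl10, Cxcl11, Cxcl9, Cxcl6, Cxcl2, Ccl3, Ccl4, Cxcl1, Ccl5 and Cxcl17, and the 6 toward collagen TNF were Ccl9, Ccl6, Ccl20, Ccl19, Ccl21 and Pf4.

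The ligands of the receptor CXCR3, which draws activated T cells, were all higher in fibrin. Cxcl9 had levels of 8.10, 7.98 and 8.12 in fibrin control and 6.06, 5.33 and 5.33 in collagen TNF, a difference of 2.49 ± 0.25. Cxcl11 had levels of 8.93, 9.13 and 8.96 against 6.91, 6.41 and 5.92, a difference of 2.59 ± 0.30. Both were also higher in collagen TNF than in collagen control, by 1.05 and 2.27. Cxcl2, which draws neutrophils, had levels of 8.0, 7.67 and 7.30 in fibrin control and 5.55, 5.32 and 5.19 in collagen TNF, a 4.93-fold difference (2.30 ± 0.19, adjusted p = 1.85e-05). Cxcl2 in collagen TNF stood 0.23 above collagen control, a difference that did not pass the test (adjusted p = 0.587). Every fibrin array was above every collagen TNF array in each of these genes.

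The chemokines higher in collagen TNF were of the CC family apart from Pf4. Ccl9, which draws myeloid cells, had levels of 8.85, 8.57 and 8.97 in collagen TNF, 7.02, 7.07 and 7.20 in fibrin control, and 5.48, 5.42 and 4.94 in collagen control. The 3 groups were apart, and the difference between the first pair was -1.70 ± 0.17 (adjusted p = 0.0001). Ccl19, a ligand of the lymph node homing receptor CCR7, was ordered in the same way, with 9.53, 9.32 and 9.43 in collagen TNF, 8.05, 8.46 and 8.07 in fibrin control and 6.36, 6.52 and 6.73 in collagen control. Its difference was -1.23 ± 0.14. Ccl6 had levels of 7.09, 7.12 and 7.78 in collagen TNF, against 5.34, 5.60 and 5.97 in fibrin control, a difference of -1.69 ± 0.23. In fibrin control Ccl6 did not differ from collagen control by more than the test allows (-0.39, adjusted p = 0.337). Ccl20, the ligand of CCR6, had levels of 7.79, 7.89 and 8.09 against 6.68, 6.57 and 6.53 (-1.33 ± 0.24, adjusted p = 0.00795). Ccl21, the other ligand of CCR7, differed by -1.13 ± 0.23; its call was lost without collagen TNF replicate 2 or 3 or fibrin control replicate 1 (adjusted p 0.06 to 0.0777).

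**Figure D3:**
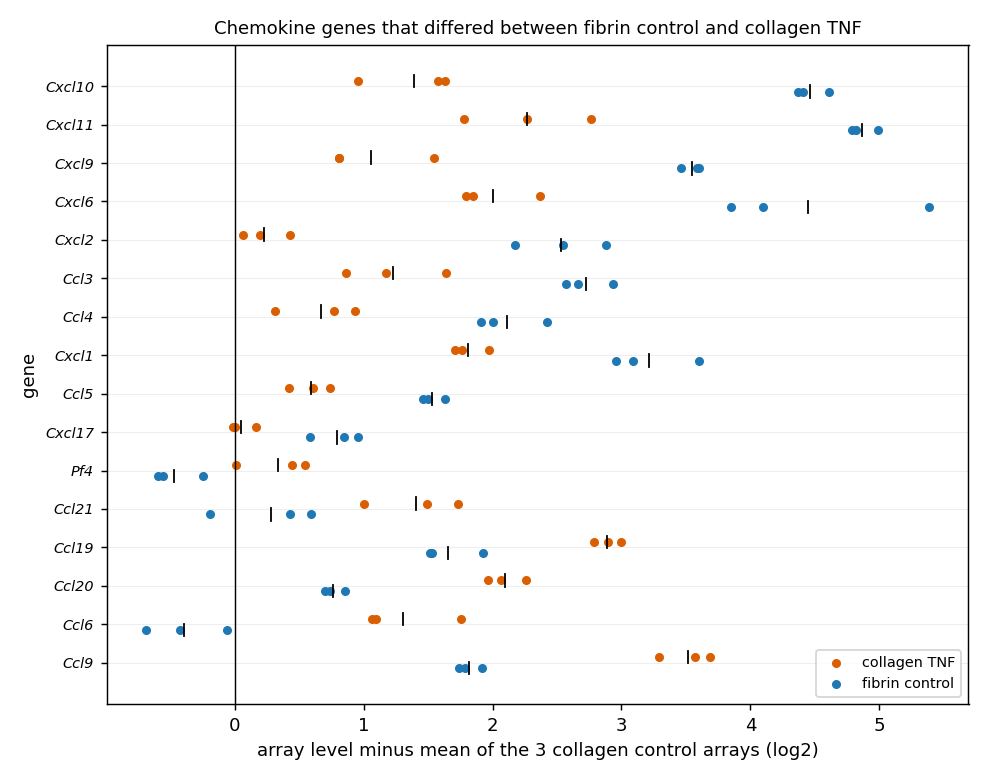
Each of the 16 called chemokine genes is plotted by array as its log2 level minus the mean of the 3 collagen control arrays, in orange for collagen TNF and blue for fibrin control, with a tick at each group mean. The upper 10 genes lie further right in fibrin control and the lower 6 in collagen TNF, with no overlap of the 3 + 3 arrays in any of them.

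Interleukins and colony-stimulating factors were higher in fibrin where they differed. Of 42 listed genes 39 were measured, of which 8 were higher in fibrin control and 0 lower, with a median of 0.06. The 8 became 5 when replicate 2 of collagen TNF or of fibrin control was left out, and the 0 became 1 when replicate 1 of fibrin control or replicate 2 of fibrin TNF was. At an unadjusted p under 0.05, 12 were higher and 7 lower. Csf3, the growth factor of neutrophils, had levels of 8.69, 7.41 and 7.66 in fibrin control, 5.29, 5.18 and 4.97 in collagen TNF and 5.39, 4.81 and 4.51 in collagen control. The fibrin arrays stood alone, while the arrays of the other groups overlapped. The difference from collagen TNF was 2.77 ± 0.30, a 6.83-fold higher level in fibrin (adjusted p = 0.00019), and collagen TNF stood 0.25 above collagen control (adjusted p = 0.752). Il10, an anti-inflammatory cytokine, had the same arrangement at low levels, with 4.96, 5.21 and 5.07 in fibrin control against 3.92, 3.96 and 3.59 in collagen TNF (1.26 ± 0.15). Il1b, an inflammatory cytokine, was higher than collagen control in both groups, by 2.39 in fibrin control and 0.98 in collagen TNF. Its levels were 8.28, 8.03 and 8.09 in fibrin control and 6.91, 6.40 and 6.87 in collagen TNF (1.41 ± 0.19). Il6, which induces acute-phase proteins, had levels of 9.08, 8.52 and 8.17 against 7.53, 7.92 and 7.76. Every fibrin array was higher, but the difference of 0.85 did not pass the test (adjusted p = 0.0866), and without fibrin control replicate 3 it did (1.06, adjusted p = 0.0389; 0.0389 to 0.254 over the alternatives).

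Genes of the NF-kB pathway, on which TNF acts, held 4 calls between the groups. Of 29 listed genes 22 were measured, of which 3 were higher in fibrin control and 1 lower, beside 1.47% and 1.19% of all genes, with a median of 0.10. At an unadjusted p under 0.05, 3 were higher and 3 lower. Against collagen control 13 of the 22 were called higher in fibrin control and 12 in collagen TNF, with list medians of 0.42 and 0.30. Nfkbiz, an inducible co-factor of NF-kB, had levels of 8.58, 8.48 and 8.61 in fibrin control and 7.73, 7.68 and 7.51 in collagen TNF (0.91 ± 0.07, adjusted p = 1.59e-05). Zc3h12a (regnase), a nuclease that degrades cytokine mRNAs, had levels of 8.34, 8.30 and 8.26 against 7.40, 7.21 and 7.30, a difference of 1.00 ± 0.10. The arrays of the groups were apart in both. Map3k8, a kinase of the same pathway, differed by 0.55, and its call was lost without any 1 collagen TNF array or without fibrin control replicate 2 or 3 (adjusted p 0.0633 to 0.114). The gene lower in fibrin control was the inhibitor Nfkbie (-0.43, adjusted p = 0.0151), whose call was lost without collagen TNF replicate 1 or 3 or fibrin control replicate 1 or 2 (adjusted p 0.0503 to 0.074).

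Of 27 listed TNF ligands, receptors and receptor partners 24 were measured, of which 3 were higher in fibrin control and 0 lower (5 and 3 at an unadjusted p under 0.05). The 3 became 1 without replicate 2 or 3 of collagen TNF, without replicate 1 or 3 of fibrin control and with the 2 groups alone. Tnfsf10 (TRAIL), a death ligand, had levels of 6.53, 6.38 and 6.69 in fibrin control against 4.98, 4.62 and 4.86 in collagen TNF, and the groups were apart by 1.71 ± 0.26 (adjusted p = 0.00267). The mRNA of Tnf itself had levels of 6.75, 6.92 and 7.01 in fibrin control and 6.82, 6.32 and 6.76 in collagen TNF. These overlapped, with a difference of 0.26 and an interval of -0.08 to 0.60. The receptor Tnfrsf1a had a difference of 0.10 (interval -0.06 to 0.25).

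The resident macrophage genes that passed the test were all lower in fibrin. Of 32 listed genes 27 were measured, of which 14 were lower in fibrin control and 0 higher, beside 1.19% and 1.47% of all genes. The median was -0.49. At an unadjusted p under 0.05, 16 were lower and 2 higher. Without collagen control replicate 1 the 0 called higher became 1. Relative to collagen control the list medians were -1.01, -0.71 and -0.63 in the fibrin control arrays and -0.17, -0.39 and -0.16 in the collagen TNF arrays, with no overlap. Against collagen control 18 of 27 were called lower and 1 higher in fibrin control, and 5 lower and 1 higher in collagen TNF. Cd163, the scavenger receptor for haemoglobin, had levels of 6.29, 6.25 and 6.48 in fibrin control, 8.31, 8.11 and 8.83 in collagen TNF and 8.46, 8.30 and 8.82 in collagen control. Fibrin stood alone in this gene, and the difference from collagen TNF was -2.08 ± 0.25, a 4.23-fold lower level (adjusted p = 0.000391). Clec10a, a galactose-binding lectin, had levels of 6.45, 6.51 and 6.61 in fibrin control and 8.34, 8.06 and 8.61 in collagen TNF (-1.81 ± 0.15). The mannose receptor Mrc1 had levels of 8.01, 8.17 and 8.50 against 9.73, 9.52 and 9.98 (-1.52 ± 0.19), and the folate receptor Folr2 differed by -1.23 ± 0.11. Collagen TNF did not differ from collagen control by more than the test allows in Cd163 (-0.11), Clec10a (0.26), Mrc1 (-0.13) or Folr2 (-0.34). F13a1, the A subunit of clotting factor XIII that macrophages make, was lower than collagen control in both groups, with differences of -2.24 in fibrin control and -1.05 in collagen TNF, and fibrin control was below collagen TNF (-1.19 ± 0.17).

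Other macrophage genes did not pass the test. Maf, a transcription factor of macrophages, had a difference of 0.00 (interval -0.25 to 0.25), Siglec1, a lectin also raised by interferon, of -0.15 (interval -0.44 to 0.13), and the chemokine receptor Ccr2 of 0.47 (interval 0.10 to 0.84, adjusted p = 0.235). The summed linear level of the 27 genes, as log2, was 13.16 to 13.35 in fibrin control and 13.52 to 13.75 in collagen TNF.

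Of 33 listed genes shared by myeloid cells 30 were measured, of which 8 were lower in fibrin control and 1 higher, with a median of -0.18. Leaving out replicate 1 or 3 of collagen TNF brought the 8 to 3, and leaving out replicate 1 of fibrin control brought it to 5. Lyz2, the macrophage lysozyme, had levels of 10.33, 10.53 and 10.43 in fibrin control, 11.33, 11.10 and 11.25 in collagen TNF and 10.84, 10.88 and 10.73 in collagen control. Genes whose symbols are only locus numbers were left out of the search for opposite calls. Among the rest, Lyz2 was the only gene called in opposite directions against collagen control, -0.39 with fibrin and 0.41 with TNF. The groups compared here differed by -0.80 ± 0.08 in Lyz2 (limma adjusted p = 8.09e-05). Cybb, the catalytic subunit of the phagocyte oxidase, had levels of 10.10, 10.32 and 10.22 in fibrin control and 11.09, 10.87 and 11.08 in collagen TNF (-0.80 ± 0.09). The gene higher in fibrin control was the immunoglobulin receptor Fcgr3a, at 8.38, 8.21 and 8.40 against 7.56, 7.08 and 7.36 (1.00 ± 0.16). The summed linear level of the list, as log2, was 13.78 to 13.98 in fibrin control and 14.09 to 14.31 in collagen TNF. Between both myeloid lists 22 of 57 genes were lower in fibrin control.

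**Figure D4:**
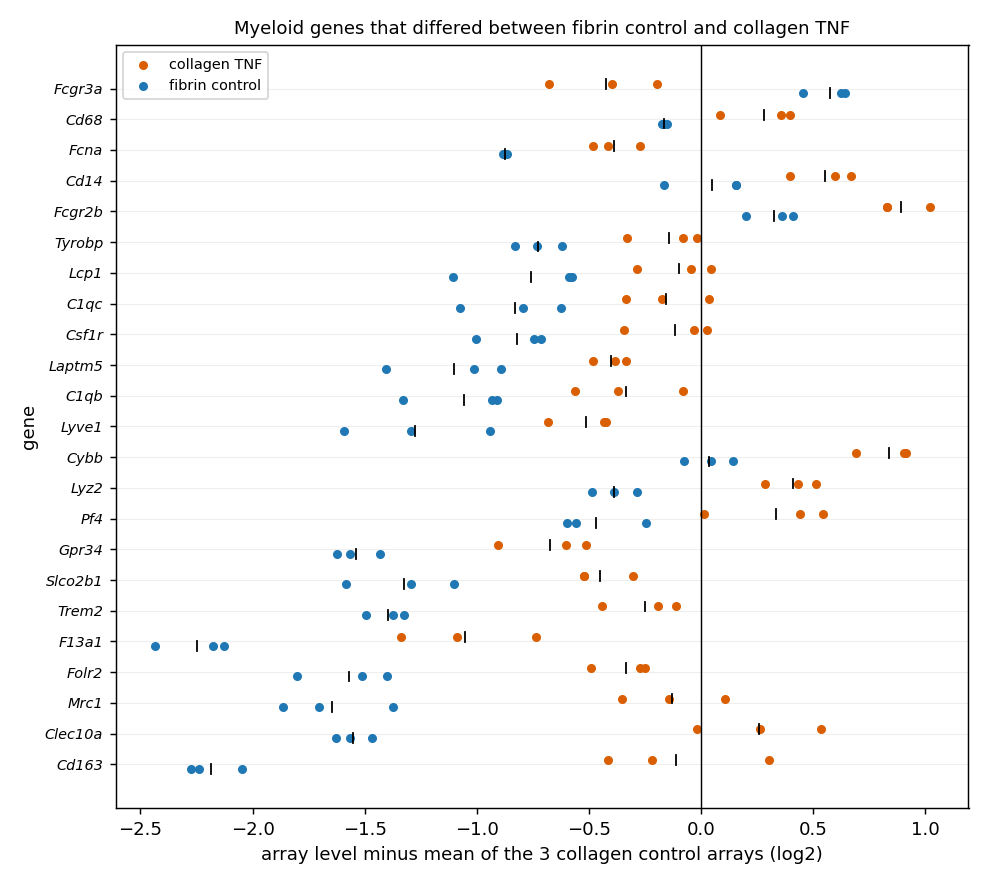
The 23 called genes of the resident macrophage and pan-myeloid lists are plotted by array as log2 level minus the mean of the 3 collagen control arrays, in orange for collagen TNF and blue for fibrin control, with a tick at each group mean. The blue points lie left of the orange points in 22 genes and right of them in Fcgr3a.

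Several other secreted proteins and receptors were higher in collagen TNF. Lypd8l1, a gene of the Ly6 family, had levels of 6.83, 6.25 and 6.67 in collagen TNF, 4.58, 4.77 and 4.61 in fibrin control and 4.75, 4.44 and 4.57 in collagen control. Among these 3 groups the collagen TNF arrays alone were raised, and the difference was -1.93 ± 0.13 (adjusted p = 9.45e-06). Tf, the iron carrier transferrin, showed the other arrangement, with 7.17, 7.59 and 7.24 in fibrin control against 9.21, 8.99 and 9.31 in collagen TNF and 9.01, 8.97 and 9.11 in collagen control (-1.84 ± 0.15). Lpl, the lipoprotein lipase, had levels of 6.38, 6.25 and 6.36 in fibrin control and 7.90, 7.49 and 7.69 in collagen TNF (-1.36 ± 0.15). Ms4a6bl1, of a family of four-pass membrane proteins, and Alox5ap, which presents arachidonate for leukotriene synthesis, were lower in fibrin control, with differences of -1.45 ± 0.10 and -1.22 ± 0.16. Clec4d, a lectin of myeloid cells, differed by -1.55 ± 0.31 (adjusted p = 0.017), a call lost without collagen TNF replicate 1 or 3 or fibrin control replicate 1 or 3 (adjusted p 0.0514 to 0.0806).

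The windows in front of Cd163, Lypd8l1 and Tf are printed for comparison with those of the genes higher in fibrin. Locus numbers aside, these 3 genes differed most toward collagen TNF. The windows lie at chr4:158770524-158770773 (plus strand), chr10:43115729-43115978 (plus strand) and chr8:112695377-112695626 (minus strand) in GRCr8, from RefSeq. None held GAAANNGAA or GGANNTTCC on either strand, so no base is in capitals.
Cd163: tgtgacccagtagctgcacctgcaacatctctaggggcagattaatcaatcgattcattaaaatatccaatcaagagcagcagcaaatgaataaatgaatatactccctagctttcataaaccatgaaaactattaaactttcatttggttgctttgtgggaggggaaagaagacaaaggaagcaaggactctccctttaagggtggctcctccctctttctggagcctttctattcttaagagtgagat
Lypd8l1: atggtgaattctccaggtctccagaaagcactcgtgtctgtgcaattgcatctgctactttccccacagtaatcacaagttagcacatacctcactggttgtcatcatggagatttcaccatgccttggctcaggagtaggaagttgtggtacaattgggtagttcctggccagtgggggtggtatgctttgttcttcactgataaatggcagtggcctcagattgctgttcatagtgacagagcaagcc
Tf: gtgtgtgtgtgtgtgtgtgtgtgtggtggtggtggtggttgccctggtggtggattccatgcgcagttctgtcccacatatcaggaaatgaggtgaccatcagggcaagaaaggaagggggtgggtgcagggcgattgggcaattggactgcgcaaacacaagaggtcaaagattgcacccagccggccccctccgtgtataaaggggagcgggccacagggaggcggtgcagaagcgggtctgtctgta

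The matrix-degrading enzymes that passed the test were lower in fibrin. Of 34 listed metalloproteinase genes 30 were measured, of which 3 were lower in fibrin control and 0 higher; at an unadjusted p under 0.05 these numbers were 9 and 0. The 3 became 1 without any 1 collagen TNF array or without fibrin control replicate 2. Adamts7, a protease of cartilage and vessel matrix, had levels of 8.76, 8.50 and 8.62 in fibrin control and 9.21, 9.16 and 9.28 in collagen TNF (-0.59 ± 0.08, adjusted p = 0.000908). Mmp3 (stromelysin) had levels of 10.97, 10.48 and 9.96 in fibrin control, 11.49, 11.51 and 11.49 in collagen TNF and 8.37, 8.27 and 7.97 in collagen control. It was raised against collagen control in both groups, and the difference between them was -1.03 ± 0.20 (adjusted p = 0.0161). That call was lost without any 1 array of collagen TNF or without fibrin control replicate 2 (adjusted p 0.0519 to 0.0615). Mmp13, a collagenase, differed by -1.27 ± 0.28 (adjusted p = 0.0312), lost without any 1 array of collagen TNF or without fibrin control replicate 2 or 3 (0.075 to 0.134). Mmp9, a gelatinase, had a difference of -0.49 that did not pass the test (interval -0.89 to -0.10, adjusted p = 0.241). The plasminogen activator Plau, which starts the breakdown of fibrin, had levels of 11.26, 10.76 and 11.11 in fibrin control and 11.67, 11.62 and 11.53 in collagen TNF. Its difference of -0.56 did not pass the test (adjusted p = 0.0707) but did without collagen control replicate 1 (adjusted p = 0.0352, with 0.0152 to 0.231 over the alternatives).

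Among 44 measured growth factor genes, 3 were higher in fibrin control and 2 lower. Angpt1, which activates the receptor Tie2 on endothelium, had levels of 7.44, 7.37 and 7.55 in fibrin control, 8.45, 8.32 and 8.80 in collagen TNF and 6.14, 6.20 and 6.33 in collagen control. The groups were apart, with a difference of -1.07 ± 0.12 (adjusted p = 0.000227). Igf1, an insulin-like growth factor, was below collagen control (10.21, 9.88 and 10.04) in both groups, with 7.62, 7.83 and 7.87 in fibrin control and 8.71, 8.64 and 8.87 in collagen TNF. Fibrin control was the lower (-0.97 ± 0.13). Pgf, a ligand of the receptor VEGFR1, had levels of 9.57, 9.38 and 9.52 in fibrin control against 9.04, 8.94 and 9.05 in collagen TNF (0.48 ± 0.08, adjusted p = 0.00814).

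Acute-phase, complement and adhesion genes held calls in both directions. Of 32 measured acute-phase and complement genes 2 were higher in fibrin control and 4 lower. The 4 became 2 without collagen TNF replicate 1 or 3. The 2 became 1 without any 1 collagen TNF array, without replicate 1 or 3 of fibrin control, and without replicate 3 of collagen control or replicate 2 of fibrin TNF. Lcn2, which binds bacterial iron carriers, had levels of 8.56, 8.27 and 8.0 in fibrin control and 6.95, 6.87 and 6.34 in collagen TNF (1.56 ± 0.20), while the pentraxin Ptx3 had levels of 9.94, 9.91 and 9.89 against 10.54, 10.66 and 10.91 (-0.79 ± 0.12). Of 15 leukocyte adhesion genes 3 were higher in fibrin control and 0 lower (4 and 4 at an unadjusted p under 0.05). E-selectin, Sele, which slows leukocytes on endothelium, had levels of 6.46, 6.66 and 6.47 in fibrin control and 5.54, 5.84 and 5.79 in collagen TNF (0.80 ± 0.13, adjusted p = 0.00278). In collagen TNF it stood 0.04 above collagen control (adjusted p = 0.934). Itgal, an integrin chain of leukocytes, differed by 1.12 ± 0.17. Vcam1 and Icam1, which hold leukocytes, had differences of 0.18 (interval 0.02 to 0.34) and -0.20 (interval -0.38 to -0.02), neither of which passed the test.

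Some genes were far above collagen control in both groups. Nos2, the inducible nitric oxide synthase, had levels of 8.56, 8.65 and 8.76 in fibrin control and 8.16, 8.30 and 8.61 in collagen TNF, against 4.94, 4.67 and 5.13 in collagen control. The groups overlapped, with a difference of 0.30 (interval -0.01 to 0.61, adjusted p = 0.404). Hpx, which binds free haem, had widely spread levels of 11.90, 11.39 and 9.66 in fibrin control and 11.56, 11.28 and 10.12 in collagen TNF, so that the interval of its difference ran from -1.21 to 1.20. Ccl7, a monocyte chemokine, had levels of 11.55, 11.25 and 11.20 against 11.38, 11.03 and 11.28, a difference of 0.10 (interval -0.26 to 0.46). Orm1, an acute-phase carrier protein, had a difference of 0.71 (interval 0.22 to 1.20) that did not pass the test (adjusted p = 0.158). Slpi, an inhibitor of neutrophil proteases, was raised by 3.40 in fibrin control and 4.29 in collagen TNF, and its levels of 9.78, 9.96 and 9.75 in fibrin control were below the 10.62, 10.66 and 10.90 of collagen TNF (-0.90 ± 0.16, adjusted p = 0.00913). That call was lost without collagen TNF replicate 3 (-0.81, adjusted p = 0.0514, with 0.000339 to 0.0514 over the alternatives).

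Among genes lowered against collagen control in both groups, Igf1 and F13a1, described above, were lower in fibrin control than in collagen TNF. None of the 3 that follow passed the test between the groups. The sulfotransferase Sult1a1 had levels of 6.93, 7.22 and 7.53 in fibrin control and 7.34, 7.0 and 7.11 in collagen TNF, against 8.53, 9.22 and 9.09 in collagen control, with a difference of 0.08 (interval -0.33 to 0.48). Hpgds, which makes prostaglandin D2 in macrophages, had a difference of -0.22 (interval -0.59 to 0.16). The microfibril gene Mfap5, a marker of adventitial fibroblasts, had levels of 7.64, 7.64 and 7.44 against 7.79, 7.75 and 7.75 (-0.19, interval -0.37 to -0.02, adjusted p = 0.311).

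Several lists of vessel wall and housekeeping genes held 0 calls, while the lists of lymphatic, fibroblast and stress genes held larger shares than the 2.66% of all genes. Of 27 smooth muscle contractile genes, 40 hypoxia and glycolysis genes, 39 cell cycle genes, 46 oxidative phosphorylation genes, 17 integrin genes and 67 ribosomal protein genes, 0 were called in either direction by limma, where 2.66% of all genes were. With 1 array left out the 0 became 1 for hypoxia genes (collagen control or collagen TNF replicate 1) and for integrins (collagen control or fibrin TNF replicate 1). At an unadjusted p under 0.05 the numbers, in the same order, were 1, 1, 2, 1, 5 and 0. Their medians lay between -0.07 and 0.01 for smooth muscle, hypoxia and ribosomal genes. Of 20 endothelial genes 1 was called, Clec14a (0.83, adjusted p = 0.0172), which lost its call without collagen TNF replicate 2 or 3 or fibrin control replicate 1 or 3 (0.0537 to 0.0783). Of 24 fibroblast genes 2 were higher in fibrin control and 2 lower, among them Ly6c at 5.95, 5.67 and 6.60 in fibrin control against 4.55, 3.78 and 3.97 (1.97 ± 0.24) and Smoc2 at -0.82 ± 0.15. Each of these fibroblast counts became 1 without replicate 1 or 2 of collagen TNF or any 1 fibrin control array, and the lower count also without collagen TNF replicate 3. Of 10 lymphatic genes 3 were lower in fibrin control and 0 higher, with a median of -0.26. At an unadjusted p under 0.05, 6 were lower and 1 higher. The 3 became 1 without collagen TNF replicate 3, and the 0 became 1 without fibrin TNF replicate 2. Among the 3 was Reln, a secreted matrix protein, at 5.20, 5.17 and 5.39 against 6.20, 6.12 and 6.68 (-1.08 ± 0.16). The others were Lyve1, also a member of the resident macrophage list, and Ccl21, counted above among the chemokines. The lymphatic count is therefore not independent of those lists. Lyve1 lost its call without collagen TNF replicate 3 (limma adjusted p = 0.0556) and with the 2 groups alone (0.0502). Of 27 genes of endoplasmic reticulum and integrated stress 3 were higher in fibrin control, among them the stress transcription factor Ddit3, at 9.71, 9.73 and 9.92 against 8.95, 8.77 and 8.94 (0.90 ± 0.13). These 3 became 1 when replicate 2 or 3 of collagen TNF or of fibrin control was left out.

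**Figure D5:**
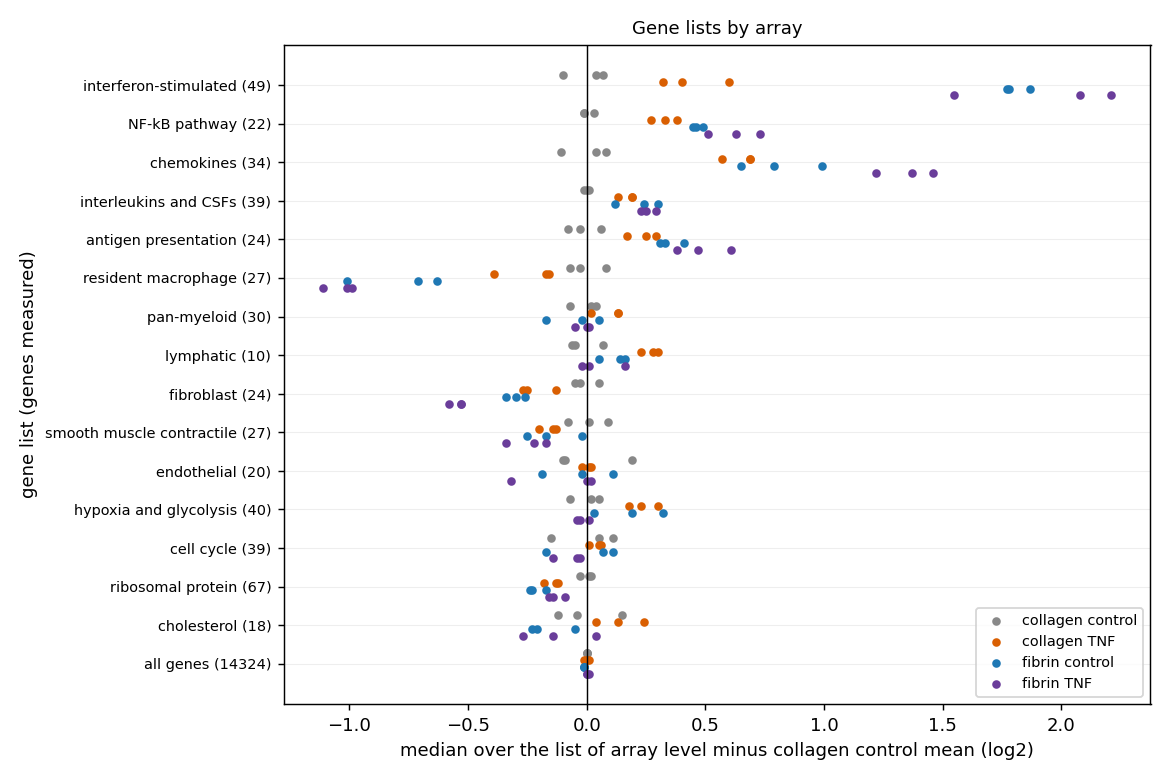
The median over each gene list of the log2 level minus the collagen control mean is plotted with a point per array, coloured by group, and the number of measured genes in brackets. The interferon-stimulated list separates fibrin control (1.77 to 1.87) from collagen TNF (0.32 to 0.60), the resident macrophage list separates them in the other direction, and the list of all 14324 genes stays between -0.01 and 0.01.

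Markers of other white blood cells showed no more than scattered calls, and most were at low levels. In the arrays compared, list medians were 4.36 to 4.54 for neutrophil, 4.48 to 4.65 for lymphocyte and 3.42 to 3.81 for mast cell genes. Over all genes the medians were 7.03 to 7.09. At such levels a lack of calls says little about these cells. Neutrophil genes (17 measured) and mast cell genes (9 measured) held 0 calls in limma, and 4 and 0 of them had an unadjusted p under 0.05. Of the neutrophil genes 2 were called higher without fibrin control replicate 2, and 1 lower without collagen control replicate 1. The summed linear levels, as log2, were 9.13 to 9.21 in fibrin control and 9.34 to 9.47 in collagen TNF for neutrophil genes. For mast cell genes they were 8.06 to 8.31 and 8.06 to 8.07. Of 17 lymphocyte genes 2 were lower in fibrin control, Cd4, which rat macrophages also carry, and Zap70. Cd4 (-0.92) lost its call without collagen TNF replicate 1 or 3 or fibrin control replicate 1 or 2 (adjusted p 0.0501 to 0.0721), and Zap70 (-0.35) without collagen TNF or fibrin control replicate 2 or 3 (0.0614 to 0.13). The summed linear level of the lymphocyte list, as log2, was 9.08 to 9.18 in fibrin control and 9.41 to 9.65 in collagen TNF. Low macrophage marker levels and high interferon-stimulated levels went together in the fibrin control arrays, and the part of either in the other was not tested.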

How the data were processed

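The data are deposited log2 expression levels from an Affymetrix whole-transcript array, 12 arrays in 4 groups of 3, grouped by sample title per the labels. The scale was read from the values (1.44 to 14.07). The authors' summarisation and normalization, and the annotation's build, are not stated in the labels. Of tools, limma alone stands in the submitters' processing notes, with no version. The table holds 27342 probe sets with 0 missing values. The annotation names 1 gene for 15097 of them, several for 323 and none for 11922, which were not used. Identifiers of 15067 were found in RefSeq's GRCr8 gene table. The probe set of highest mean over 12 arrays stood for each of 14324 genes (499 had more than 1), and no filter on low values was applied. Families with near-identical copies (Mx, Oas1, Ifit, Gbp, Slfn, RT1, Ces1, Scgb1b, Akr1c) are uncertain as single genes.

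All 12 arrays entered 1 linear model with a mean for each group (limma 3.58.1, R 4.3.3). Moderated two-sided p-values were adjusted by Benjamini-Hochberg over all genes within a comparison. A gene was called at an adjusted p under 0.05. Errors of differences are standard errors, intervals are 95% and unadjusted, and folds are 2 to the power of the log2 difference. The number of arrays limits the precision. Without a scan date or slide in the labels, batches were not tested.

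The members, the 37 gene lists, the alternatives and the rule for named genes were chosen with earlier results of these data known, so list counts are descriptions, to be read against the shares over all genes. Named were the 15 largest differences in each direction among calls and up to 6 called members of a described list. Up to 3 others of such a list were chosen after their values were seen. Genes called against collagen control in both groups or in opposite directions were also named. So were 22 genes fixed by name, of which 19 were measured, and the others are not analysed here. Symbols that are only locus numbers were skipped in the rankings. On simulated data with 100 genes changed by 0.5 and 100 by 1 (log2) among 14324, the fit recovered 65% and 99%, and 4.65% of calls were false. Other normalizations, filters, priors, thresholds and fits without each array were run as alternatives. Promoters are RefSeq's, 250 bases, 1 start site per gene.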

Additional observations from a re-analysis of the deposited data

How the results depend on the processing

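Results were refitted under other normalizations (quantile, median centring), without the dimmest 33.3% of genes, with the 2 groups alone, a prior that was trended and robust, array weights, a replicate block, means over probe sets, and without each array; a threshold of 0.01 was tried for counts, and all probe sets for the counts over all genes. With 1 array left out, called genes ranged from 230 to 391 (133 to 211 higher, 93 to 184 lower in fibrin control), interferon-stimulated genes higher from 42 to 44, chemokines higher from 9 to 10 and lower from 5 to 6, interleukins and colony-stimulating factors higher from 5 to 7 and lower from 0 to 1, resident macrophage genes higher from 0 to 1 and lower from 10 to 15, and pan-myeloid genes lower from 3 to 8. At 0.01 the calls were 197 (125 higher, 72 lower), with 4 interleukin genes higher and 3 pan-myeloid genes lower. Without the dimmest 33.3% of genes 5 interleukin genes were higher. With only the 2 groups, 1 interleukin gene and 5 pan-myeloid genes were lower, and with array weights 1 interleukin gene was. Without near-identical families, chosen after seeing the data, 23 interferon-stimulated genes were higher.

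Of 109 called named genes, 41 lost the call under at least 1 of 20 alternatives and 0 reversed; 37 were not called without collagen TNF replicate 3, 30 without its replicate 2, 23 without its replicate 1, 23 to 27 without a fibrin control array, 19 with only the 2 groups compared and 9 after quantile normalization. Same-numbered arrays of the 2 groups correlated, as deviations from group means, at 0.13, 0.02 and 0.21, beside -0.19 to 0.06 for arrays of other numbers. The main fit held no replicate term, but a tie between same-numbered arrays is not excluded. Between collagen control and collagen TNF the values were 0.13, 0.14 and 0.14 (other numbers -0.1 to -0.04). Between fibrin control and fibrin TNF they were 0.25, 0.14 and 0.16 (other numbers -0.16 to 0.01). In these pairs within a gel, every same-numbered value lay above those of other numbers. With the replicate block 434 genes were called (229 higher, 205 lower), 3 interleukin genes were lower, and Orm1 (adjusted p = 0.0114), Ces1f (0.0443), Il6 (0.044) and Plau (0.0152) were called and Tlr3 (0.0502) was not. With the 2 groups alone, RT1-DMa, Ccl21, Mmp3, Clec14a and Zap70 were not called (limma adjusted p 0.0536 to 0.1). The trended and robust prior left Clec4d (0.052), Mmp13 (0.114) and Zap70 (0.0622) uncalled. Zap70 was also uncalled after quantile normalization (0.0693) and median centring (0.0684). Differences under about 0.5 lie near the limit of 3 arrays a group.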
